A study of Homo sapiens with 12 samples.

Results

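The 10 genes described here are PCK2, PCK1, PC and genes of amino acid synthesis and transamination (ASNS, CTH, PYCR1, ALDH18A1, GPT2, GOT1 and BCAT1). They were followed across siRNA knockdowns of chromatin regulators in NCCIT cells, a human embryonal carcinoma cell line. They were chosen by the higher levels of PCK2 and ASNS against siNTC in earlier results of these same arrays, so every difference of a member from siNTC is given as a description: no p is printed for it, and counts past the limits stand only beside the share of all genes that passed them. Of the 10 genes, 9 had a transcript cluster (the probes that together read 1 gene) among the 18417 genes of the table, and GPT2 was not analysed here. Each condition had 2 arrays, for 12 in all. The siWDR5 pool targeted WDR5, a subunit of the MLL/COMPASS complexes that methylate histone H3 at lysine 4. The siEED pool targeted EED, a core subunit of Polycomb repressive complex 2. The siRNF2 pool targeted RNF2, a ubiquitin ligase of Polycomb repressive complex 1, and siEED+RNF2 had both targets. The siSETD2 pool targeted SETD2, a methyltransferase of histone H3 lysine 36, and siNTC was a non-targeting pool.

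Each siRNA was a pool of several sequences against 1 gene, so no single siRNA can be followed. The combined knockdown received both pools and therefore more siRNA in all than a single knockdown. By the paper's methods it also received more transfection reagent. Neither can be told apart from knockdown of both targets in comparisons with siEED+RNF2. A re-analysis is named in the labels of the siNTC arrays, and any difference in how they were handled cannot be told apart from knockdown in a comparison with siNTC. Nothing in the sources used here says that the 2 arrays of a condition came from separate cultures, so the errors below measure the spread between arrays, and the number of arrays limits their precision.

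As a check of the labels, the log2 difference from siNTC was -1.21 for WDR5 in siWDR5, -1.29 for EED in siEED, -1.61 for EED in siEED+RNF2 and -1.75 for SETD2 in siSETD2 (adjusted p = 6.4e-07 or smaller, limma). The targeted gene of siRNF2 was not analysed here. EED was also lower in the 3 knockdowns not aimed at it (-0.54 in siWDR5, -0.66 in siRNF2 and -0.42 in siSETD2). Of 10 pluripotency markers, 7 were measured, at condition means of 10.36 to 12.83 in log2 units, while 7 hepatocyte, 5 fibroblast and 4 trophoblast markers lay between 4.18 and 6.31 in every condition. In bulk RNA of this kind, fewer cells with a transcript and less transcript per cell cannot be told apart.

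The members sit where central carbon metabolism meets amino acid synthesis. PCK2 and PCK1 are the mitochondrial and the cytosolic phosphoenolpyruvate carboxykinase, which turn oxaloacetate into phosphoenolpyruvate, and PC, pyruvate carboxylase, makes oxaloacetate from pyruvate. Oxaloacetate is also the carbon skeleton of aspartate and asparagine, and glutamate is that of proline. When amino acids run short or the unfolded protein response is active, mammalian cells translate the transcription factor ATF4, and ASNS, PCK2, CTH and PYCR1 are among the genes known to respond to it.

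ATF4 pairs with C/EBP proteins on a composite element, and the element in the ASNS promoter is a textbook case, so the members' promoters were searched for its core, TGATGNAA, on both strands. Windows of 300 bases, 250 before and 50 after each annotated start, came from RefSeq (GRCh38.p14). Windows were found for 7 members, and 3 of those genes held a match. The matches are printed 5′ to 3′ on the strand of the gene, with the motif in capitals, to show the element in the promoter where it is best known and in those of an aminotransferase pair whose levels differed in pattern.
ASNS (1 of 2 annotated starts, chr7:97872458-97872487, minus strand, 68 bases before the start): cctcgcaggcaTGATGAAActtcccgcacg
GOT1 (its 1 annotated start, chr10:99430804-99430833, minus strand, motif read on the opposite strand, 198 bases before the start): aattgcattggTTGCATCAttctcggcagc
BCAT1 (1 of 5 annotated starts, chr12:24949131-24949160, minus strand, 48 bases before the start): tgtcttcctgcTGATGCAAtccgctaggtc
Among all 35116 windows of this length, 3.62% held a match, or 4.46% of 27305 genes with a window. The windows of PCK2, CTH, ALDH18A1 and PC did not hold these letters, which says nothing about what binds there. A match is a description of the sequence and not evidence of a site in use.

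PCK2, the gene with the widest spread between conditions among the members, read 8.76 and 8.69 log2 units on the siWDR5 arrays, 9.27 and 9.29 on the siEED arrays, 9.86 and 9.88 on the siRNF2 arrays, 9.66 and 9.72 on the siEED+RNF2 arrays, 5.87 and 5.94 on the siSETD2 arrays, and 6.14 and 6.24 on the siNTC arrays. The order of conditions was siRNF2, siEED+RNF2, siEED, siWDR5, siNTC and siSETD2, and no neighbours in that order overlapped. The siNTC and siSETD2 arrays were far below the other 8. Against siNTC, PCK2 was 12.8-fold higher in siRNF2, 11.3-fold in siEED+RNF2, 8.52-fold in siEED and 5.81-fold in siWDR5, and 1.22-fold lower in siSETD2, with a standard error of 0.06 on the log2 scale. Set against the siSETD2 arrays in place of siNTC, a comparison added after the data had been seen, the log2 differences were 3.96 in siRNF2, 3.78 in siEED+RNF2, 3.37 in siEED and 2.82 in siWDR5.

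PCK1, the cytosolic enzyme that liver uses for gluconeogenesis, lay between 3.95 and 4.19 on all 12 arrays, at the dim end of the table, and every pair of neighbouring conditions overlapped. Its differences from siNTC ran from -0.11 in siEED to 0.03 in siSETD2, and no order can be read from them, since 2 of them changed sign under another scaling (to 0.03 in siRNF2 with quantile normalization and -0.06 in siEED+RNF2 with centring over genes). PC, which supplies oxaloacetate, read 8.48 and 8.21 in siWDR5, 8.26 and 8.39 in siEED, 8.17 and 8.19 in siRNF2, 8.21 and 8.50 in siEED+RNF2, 7.72 and 7.81 in siSETD2, and 8.41 and 8.44 in siNTC. Both siSETD2 arrays were below all others, with a difference of -0.66 from siNTC (1.58-fold lower), whereas the arrays of the remaining knockdowns differed from siNTC by -0.24 to -0.07. Measured from the siSETD2 arrays instead, PC was 0.42 to 0.59 higher in those 4 knockdowns.

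ASNS, asparagine synthetase, read 10.81 and 10.80 in siWDR5, 11.19 and 11.11 in siEED, 11.62 and 11.52 in siRNF2, 11.46 and 11.45 in siEED+RNF2, 9.65 and 9.68 in siSETD2, and 9.61 and 9.74 in siNTC. It followed the same order of conditions as PCK2, but siSETD2 lay within the range of siNTC. RefSeq also lists a readthrough gene across ASNS, whose transcripts these probes may not tell apart from those of ASNS. ASNS was 3.72-fold higher than siNTC in siRNF2, 3.44-fold in siEED+RNF2, 2.77-fold in siEED and 2.19-fold in siWDR5, and differed by -0.01 on the log2 scale in siSETD2 (0.01 with centring over all clusters), with a standard error of 0.07 on the log2 scale. GOT1, the cytosolic aspartate aminotransferase that supplies the substrate of ASNS, differed less: 11.58 and 11.53 in siWDR5, 11.49 and 11.58 in siEED, 11.67 and 11.57 in siRNF2, 11.58 and 11.70 in siEED+RNF2, 11.15 and 11.20 in siSETD2, and 11.24 and 11.28 in siNTC. All 8 arrays of the first 4 conditions were above siNTC, by 0.27 to 0.38 on average, and those 4 conditions overlapped each other.

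CTH, cystathionine gamma-lyase, which makes cysteine in the last step of transsulfuration, read 11.04 and 11.05 in siWDR5, 11.48 and 11.51 in siEED, 11.66 and 11.64 in siRNF2, 11.58 and 11.64 in siEED+RNF2, 9.75 and 9.62 in siSETD2, and 10.07 and 10.15 in siNTC. The differences from siNTC were 1.54 in siRNF2, 1.5 in siEED+RNF2, 1.38 in siEED, 0.93 in siWDR5 and -0.43 in siSETD2. CTH thus had the PCK2 order with siSETD2 below siNTC on both arrays, and only siRNF2 and siEED+RNF2 overlapped.

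In proline synthesis, ALDH18A1 makes the intermediate pyrroline-5-carboxylate from glutamate and PYCR1 reduces it to proline. PYCR1 read 10.61 and 10.51 in siWDR5, 10.61 and 10.64 in siEED, 10.81 and 10.90 in siRNF2, 10.74 and 10.83 in siEED+RNF2, 10.11 and 10.14 in siSETD2, and 10.07 and 10.02 in siNTC. It was 0.81 above siNTC in siRNF2, 0.74 in siEED+RNF2, 0.58 in siEED, 0.52 in siWDR5 and 0.08 in siSETD2. The 2 steps of the pathway differed in pattern: ALDH18A1 lay between 10.01 and 10.37 on all arrays and was highest in siSETD2 (10.35 and 10.37, against 10.01 and 10.02 in siNTC), with differences of 0.02 to 0.24 in the other 4 knockdowns. With arrays centred on their median over genes, the ALDH18A1 difference turned to -0.01 in siEED and -0.11 in siRNF2.

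BCAT1, the cytosolic branched-chain aminotransferase, had another order of conditions. It read 10.66 and 10.72 in siWDR5, 10.77 and 10.78 in siEED, 10.95 and 10.82 in siRNF2, 10.28 and 10.37 in siEED+RNF2, 10.44 and 10.49 in siSETD2, and 10.81 and 10.76 in siNTC. It was lowest in siEED+RNF2 (-0.46 from siNTC) and next lowest in siSETD2 (-0.32), while siEED and siRNF2 alone were -0.01 and 0.10 from siNTC. Those 2 small differences changed sign under another scaling of the arrays, to 0.02 in siEED with centring over all clusters and -0.03 in siRNF2 with centring over genes.

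**Figure D1:**
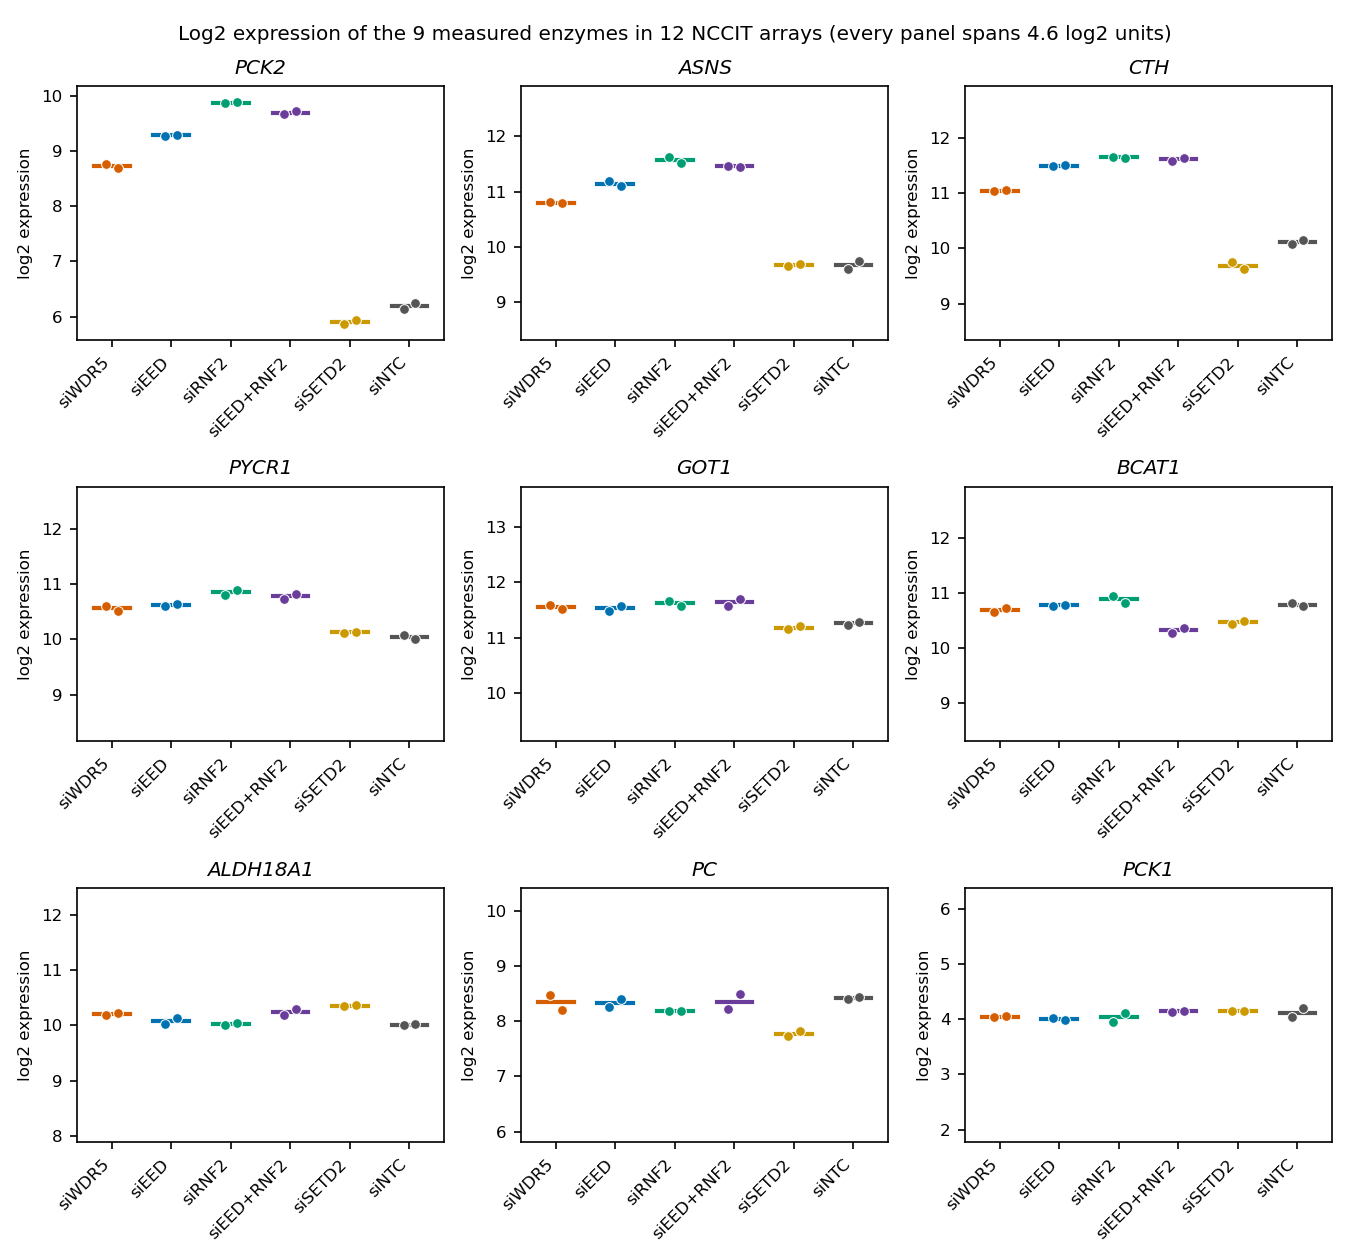
Log2 expression value (vertical axis of each panel) of each of the 9 measured members on every array, by condition along the horizontal axis with siNTC last, where points are arrays and short lines are means of 2 arrays, with the same span of log2 units in every panel. PCK2, ASNS, CTH and PYCR1 are low in siSETD2 and siNTC and high in the other 4 conditions, PC is lowest in siSETD2, and BCAT1 is lowest in siEED+RNF2.

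Counted over the 9 measured members, 3 were called higher than siNTC in siWDR5 (PCK2, ASNS and CTH), where 2.8% of all genes were called higher and 6.02% in either direction at an adjusted p under 0.05 (limma with Benjamini-Hochberg adjustment) and a fold of at least 1.5. The same 3 were called in siEED (3.74% of all genes higher, 6.37% in either direction). With PYCR1, 4 were called in siRNF2 (6.37% higher, 10.2% in either direction) and 4 in siEED+RNF2 (5.49% higher, 11.5% in either direction). In siSETD2, 1 member was called, PC, which was lower (3.18% of all genes lower, 5.82% in either direction). These counts follow from how the genes were chosen and nothing is read from them. PYCR1 in siEED lay just under the fold limit and passed it without siEED replicate 1 (0.59), without siNTC replicate 1 (0.61), and with quantile normalization (0.62).

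The median difference of the 9 members from siNTC was 0.36 in siRNF2, 0.38 in siEED+RNF2, 0.27 in siEED, 0.30 in siWDR5 and -0.08 in siSETD2, beside medians of -0.04 to -0.01 over all genes. Both arrays were above both siNTC arrays for 6 members in each of the first 4 knockdowns, a placing shared by 31.4% of all genes in siRNF2, 33% in siEED+RNF2, 29.2% in siEED and 28.8% in siWDR5. In siSETD2 it was 2 members, ALDH18A1 and PYCR1, with 31% of all genes. Both arrays were below siNTC for 5 members in siSETD2 (background 33.7%), for 2 in siEED (background 37.8%) and for 1 each in siWDR5 (36.3%), siRNF2 (39.8%) and siEED+RNF2 (36.4%). All 5 comparisons use the same pair of siNTC arrays.

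**Figure D2:**
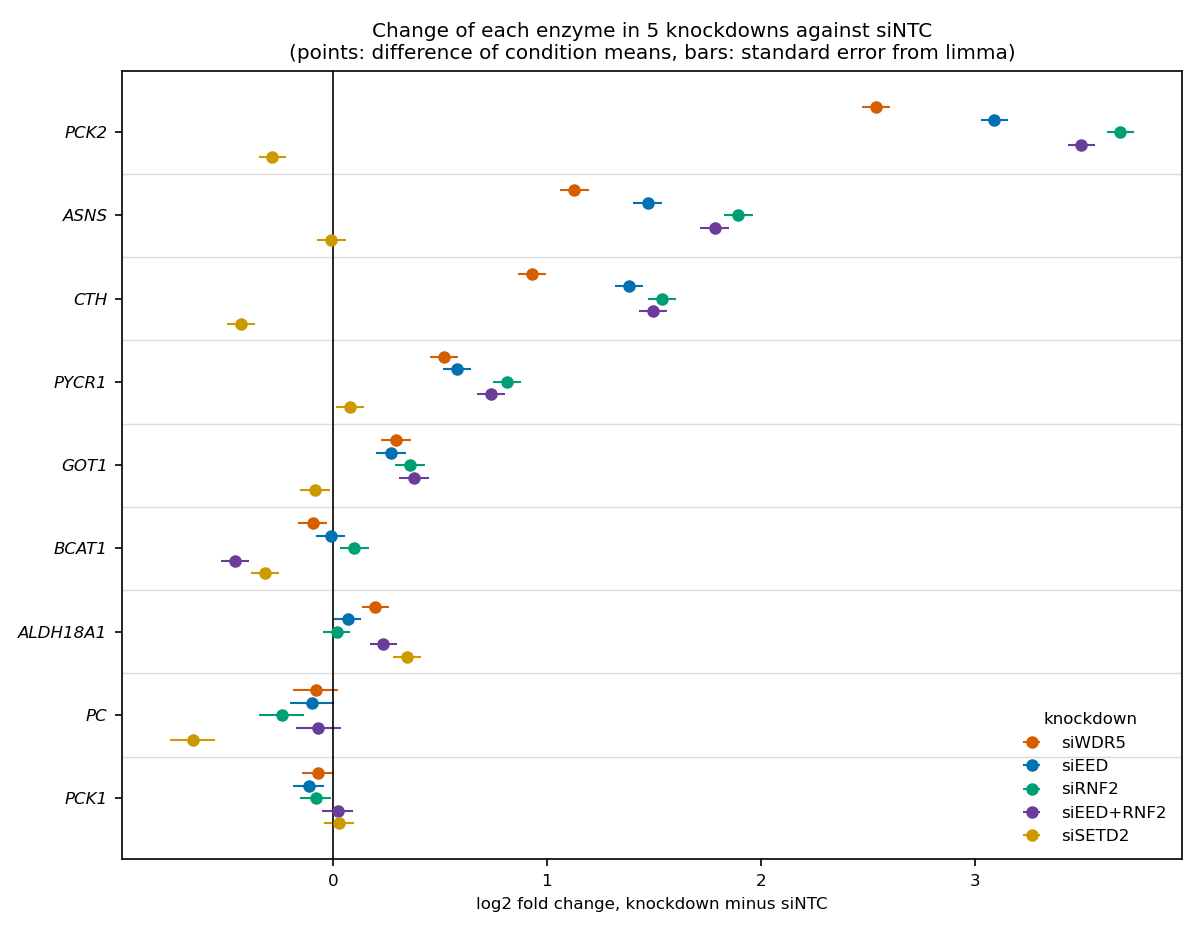
Log2 difference of each member from siNTC (horizontal axis) in each of the 5 knockdowns, with genes down the page, points for differences of condition means and bars for standard errors from limma over 12 arrays. PCK2 spans -0.28 in siSETD2 to 3.68 in siRNF2, ASNS and CTH follow at smaller sizes, and PCK1 lies between -0.11 and 0.03.

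The knockdowns were then compared with each other. These contrasts use no siNTC array, although they share the knockdown arrays with the comparisons that chose the members. PCK2 was higher in siRNF2 than in siEED, by 0.59 (95% confidence interval 0.45 to 0.73, adjusted p = 0.00024, limma), and it was the 1 of 9 members called there, where 0.793% of all genes were called higher and 1.26% in either direction. At just over 1.5-fold this lay on the fold limit: the difference was 0.58 without siEED replicate 1, 0.58 without siRNF2 replicate 2 and 0.54 with centred arrays, and each of these ended the call while the adjusted p stayed under the threshold (0.0041, 0.0037 and 0.00048). ASNS was also higher in siRNF2 than in siEED, by 0.42 (adjusted p = 0.0025), and PYCR1 by 0.23 (adjusted p = 0.041), both under the fold limit. For PYCR1 the adjusted p ran from 0.0056 to 0.21 over the alternatives, among them 0.054 with the replicate block and 0.09 with centred arrays, and it exceeded 0.05 with any of the 4 arrays left out. CTH was 0.15 higher (interval 0.01 to 0.29, adjusted p = 0.18). EED was itself lower in siRNF2 (-0.66 against siNTC), and its part in these differences was not tested.

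The siEED+RNF2 means lay between those of the single knockdowns for PCK2, ASNS, CTH and PYCR1. This placing is not established for any of them, since none differed from siRNF2 at an adjusted p under 0.05 (limma). Against siRNF2, CTH and PYCR1 differed by -0.04 and -0.07 (limma adjusted p = 0.74 and 0.52), and CTH turned to 0.01 with centred arrays. Against siEED they differed by 0.11 and 0.16 (adjusted p = 0.31 and 0.13). Compared with siEED, siEED+RNF2 was higher by 0.41 for PCK2 (adjusted p = 0.0011) and by 0.31 for ASNS (adjusted p = 0.0095), and the difference for BCAT1 was -0.45 (adjusted p = 7e-04). Compared with siRNF2, the differences were -0.18 for PCK2 (interval -0.32 to -0.04, adjusted p = 0.073) and -0.11 for ASNS (interval -0.26 to 0.04, adjusted p = 0.32), neither past the threshold. BCAT1 was lower in siEED+RNF2 than in siRNF2, with a difference of -0.56 (interval -0.70 to -0.41, adjusted p = 0.00012), and ALDH18A1 was higher by 0.22 (adjusted p = 0.034). The adjusted p for ASNS against siEED reached 0.082 without siEED replicate 2, and 0.051 without siEED+RNF2 replicate 1 or without siEED+RNF2 replicate 2. That for ALDH18A1 against siRNF2 reached 0.22 without siEED+RNF2 replicate 2, 0.17 without siRNF2 replicate 1, 0.078 without siRNF2 replicate 2 and 0.092 with only the conditions compared in the fit.

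With the fold limit, 0 members were called by limma in siEED+RNF2 minus siEED (background 2.91%) and 0 in siEED+RNF2 minus siRNF2 (background 3.27%). Without adjustment, 5 members had a p under 0.05 against siEED (4 up, 1 down, beside 27.1% of all genes) and 3 against siRNF2 (1 up, 2 down, beside 29.6% of all genes). BCAT1 passed the fold limit in siEED+RNF2 minus siRNF2 without siRNF2 replicate 2 (-0.62) or without siEED+RNF2 replicate 2 (-0.60).

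PCK2, ASNS and CTH were nearer to siNTC in siWDR5 than in siEED. Compared with siEED, siWDR5 was lower for these 3, with differences of -0.55 for PCK2 (interval -0.69 to -0.41, adjusted p = 0.00011), -0.46 for CTH (adjusted p = 5e-04) and -0.34 for ASNS (adjusted p = 0.0038). PYCR1 differed by -0.06 (interval -0.20 to 0.08) and GOT1 by 0.02 (interval -0.13 to 0.18), with adjusted p values of 0.61 and 0.86 that do not show them to be alike. No order can be read for these genes either. PYCR1 turned to 0.03 with centred arrays and GOT1 to -0.01 with quantile normalization. Of the members, 0 were called with the fold limit by limma (background 3.33%), and 3 had an unadjusted p under 0.05, all lower, beside 31.2% of all genes in either direction. Without siWDR5 replicate 1, PCK2 passed the limit, at -0.59.

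**Figure D3:**
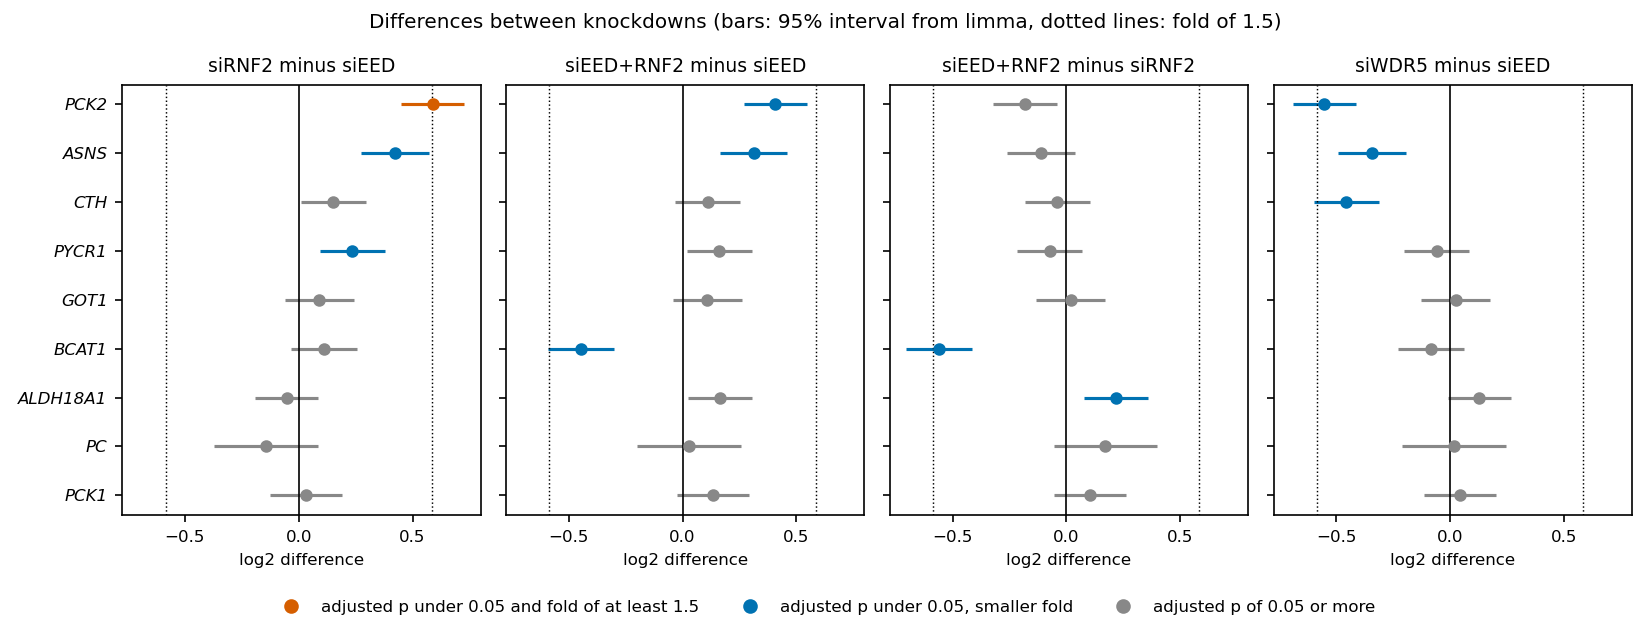
Log2 difference of each member between knockdowns (horizontal axis), 1 panel per contrast, with genes down the page, dotted lines at a fold of 1.5 and bars for 95% confidence intervals from limma over 12 arrays. PCK2 is 0.59 higher in siRNF2 than in siEED, differs by -0.55 between siWDR5 and siEED, and BCAT1 is lower in siEED+RNF2 than in either single knockdown.

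The combined knockdown was set against the sum of the single ones on the log2 scale, a contrast that includes siNTC and is therefore described only. For PCK2 the siEED and siRNF2 differences from siNTC sum to 6.77, against 3.5 measured in siEED+RNF2, a gap of -3.27. The gap was -1.58 for ASNS (sum 3.37, measured 1.78), -1.43 for CTH (sum 2.92, measured 1.5) and -0.65 for PYCR1 (sum 1.39, measured 0.74). In that contrast 4 of 9 members were past the limits on the lower side, beside 7.43% of all genes (11.3% in either direction), and nothing is read from this, because the higher values in both single knockdowns that marked these genes enter the gap. BCAT1 differed in kind, since its single differences sum to 0.09 and the combined one was -0.46, a gap of -0.55. For PYCR1 the gap was -0.52 with centred arrays, under the fold limit.

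Over the 12 arrays, PCK2, ASNS, CTH, PYCR1 and GOT1 had pairwise Pearson correlations of 0.938 to 0.993, whereas pairs with ALDH18A1, BCAT1, PC or PCK1 ran from -0.784 to 0.544. The arrays fall into conditions of 2 each, so these correlations describe the 6 conditions more than 12 independent points. The first group holds the members with both arrays above both siNTC arrays in siWDR5, siEED, siRNF2 and siEED+RNF2. That grouping uses the same values, so nothing is read from the gap between the 2 ranges. Among 1331 genes whose condition means span at least 1 log2 unit, those most like PCK2 were DDIT3 (r = 0.997), PSPH (0.996), INHBE (0.994), ASNS (0.993) and ULBP1 (0.993). Those most like ASNS were TNFRSF10B (0.997), INHBE (0.997), SLC1A4 (0.994), PCK2 (0.993) and DDIT3 (0.993).

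DDIT3 encodes the transcription factor CHOP and PSPH the last enzyme of serine synthesis. INHBE encodes an inhibin beta subunit, SLC1A4 a neutral amino acid transporter, TNFRSF10B a death receptor and ULBP1 a ligand of the receptor NKG2D. Their sizes differed: INHBE was 4.19 above siNTC in siRNF2, 3.90 in siEED+RNF2, 3.39 in siEED, 2.47 in siWDR5 and -0.05 in siSETD2, the only one of these genes with larger differences than PCK2 in siEED, siRNF2 and siEED+RNF2. TNFRSF10B was 1.34 above siNTC in siRNF2, 1.24 in siEED+RNF2, 0.96 in siEED, 0.77 in siWDR5 and -0.02 in siSETD2.

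Other enzymes that make amino acids or act beside the members, called the synthesis list here, were divided. Of 23 listed enzymes, 18 were measured, and 4 rose in siWDR5 with 1 that fell, 5 rose in siEED with 0 that fell, 5 rose in siRNF2 with 2 that fell, and 5 rose in siEED+RNF2 with 1 that fell. Over all genes, 2.8% were called higher in siWDR5, 3.74% in siEED, 5.49% in siEED+RNF2 and 6.37% in siRNF2. In either direction it was 6.02% in siWDR5, 6.37% in siEED, 11.5% in siEED+RNF2 and 10.2% in siRNF2. Those that rose were PHGDH, PSAT1 and PSPH, the 3 enzymes that make serine from a glycolytic intermediate, SHMT2, which turns serine into glycine in mitochondria, and, in these knockdowns other than siWDR5, ASS1, which makes argininosuccinate. Those that fell were CPS1 in siWDR5, OAT and MAT2A in siRNF2 and MAT2A in siEED+RNF2; PHGDH, SHMT2, CPS1, OAT and MAT2A are named after their values were seen. In siSETD2, 0 rose and 3 fell (ASS1, ASL and CPS1, all of the urea cycle). Of all genes, 3.18% were called lower there and 5.82% in either direction. Of the list, 4 were above and 4 below siNTC there with an unadjusted p under 0.05, beside 41.5% of all genes in either direction. The list's median was 0.11 in siRNF2, 0.22 in siEED+RNF2, 0.17 in siEED, 0.10 in siWDR5 and -0.02 in siSETD2. Against siNTC in siRNF2, PSPH rose by 1.72 ± 0.07 (SE), PSAT1 by 1.19 ± 0.08 and ASS1 by 1.10 ± 0.08. In siSETD2, ASL fell by 1.07 ± 0.08. These genes were named for the largest differences among the called genes of the list, so no p is printed for them. PHGDH lay near the fold limit and was under it without siWDR5 replicate 1 (0.57), without siEED replicate 2 (0.58) and without siEED+RNF2 replicate 2 (0.55), as did SHMT2 in siWDR5 without siNTC replicate 2 (0.55). Measured from the siSETD2 arrays, PHGDH was under the limit in all 4 of these knockdowns (0.33 to 0.44) and CPS1 differed by -0.06 in siWDR5. Only from that reference were ASS1 called higher in siWDR5 (0.92) and ASL in all 4 (0.66 to 0.82). The same held for CPS1 in siEED, siRNF2 and siEED+RNF2 (0.87 to 0.98). ASL was below siNTC in those 4, and ASS1, ASL and CPS1 were themselves called lower in siSETD2.

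Of 24 listed enzymes that break amino acids down, 19 were measured, and 1 passed the test in each knockdown other than siSETD2, a share below the 6.02% to 11.5% of all genes called in those comparisons. PRODH, which oxidises proline and so runs opposite to PYCR1, was the 1 gene that rose in siEED, siRNF2 and siEED+RNF2. Its difference was 0.82 ± 0.09 in siEED+RNF2 (SE). AMT, of the glycine cleavage system, was the 1 gene that fell in siWDR5, by 0.84 ± 0.06. Both were named by the same rule of size, and no p is printed for them. In siSETD2, 0 passed the test (limma), beside 5.82% of all genes. There 4 were above and 9 below siNTC with an unadjusted p under 0.05, beside 41.5% of all genes in either direction. The list's median lay between -0.14 and -0.02 in the 5 knockdowns. PRODH in siRNF2 was 0.61, and was under the fold limit without siRNF2 replicate 2 (0.57), without siNTC replicate 2 (0.53) and with centred arrays (0.48). Measured from the siSETD2 arrays, PRODH was 0.56 higher in siEED and 0.40 higher in siRNF2, and AMT differed by -0.31 in siWDR5, all under the limit.

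All 21 listed enzymes and carriers around PCK2, PCK1 and PC, gluconeogenesis included, were measured. They are called the pyruvate and oxaloacetate list here, although not all of them use pyruvate or oxaloacetate. In siEED, siEED+RNF2 and siSETD2 1 passed, in siRNF2 2 and in siWDR5 0, beside 5.82% to 11.5% of all genes, so no count stood above that share. ENO2, an enolase that makes phosphoenolpyruvate in glycolysis, rose in siEED, siRNF2 and siEED+RNF2, by 0.99 ± 0.06 in siRNF2 (SE). Measured from the siSETD2 arrays, however, ENO2 was under the fold limit, at 0.57 in siRNF2, 0.50 in siEED+RNF2 and 0.36 in siEED. ACLY, which splits cytosolic citrate into acetyl-CoA and oxaloacetate, fell in siRNF2 by 0.62 ± 0.07. It was under the fold limit without siRNF2 replicate 1 (-0.56) and with quantile normalization (-0.58). FBP1, a gluconeogenic phosphatase, rose in siSETD2 by 1.19 ± 0.08. From the siSETD2 arrays, FBP1 was therefore called lower in siWDR5 (-0.76), siEED (-1.40), siRNF2 (-0.93) and siEED+RNF2 (-1.22). ENO2, ACLY and FBP1 were named by the same rule of size, and no p is printed for them. In siWDR5, 0 passed (limma), while 8 were above and 1 below siNTC with an unadjusted p under 0.05, beside 43.4% of all genes in either direction. The list's median was -0.16 in siRNF2, -0.05 in siEED+RNF2, -0.10 in siEED, 0.06 in siWDR5 and 0.0011 in siSETD2.

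**Figure D4:**
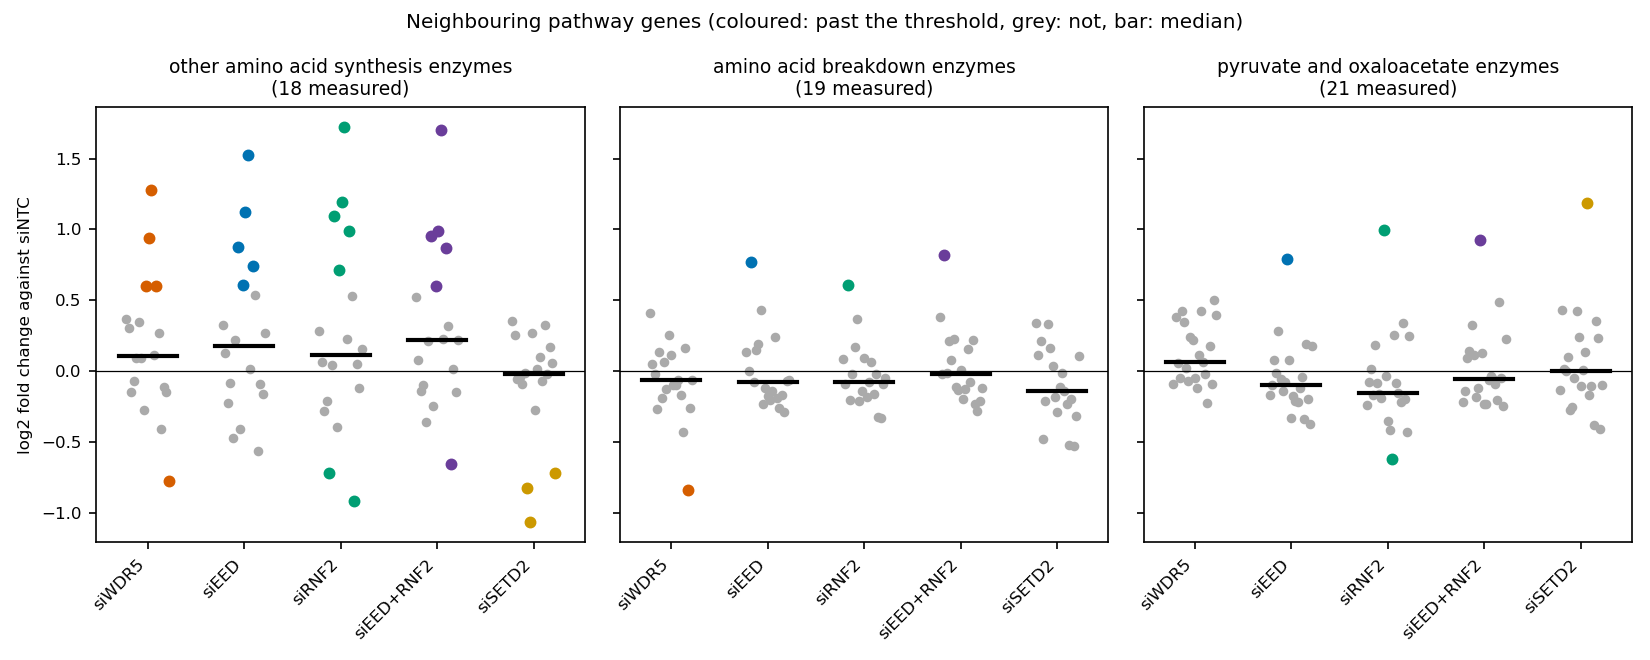
Log2 difference from siNTC (vertical axis) of every measured gene of the 3 lists of neighbouring enzymes, by knockdown along the horizontal axis, where points are genes (coloured where past the test) and lines are list medians. Most points lie near 0, and PSPH is the highest synthesis enzyme, at 1.72 in siRNF2.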

How the data were processed

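Total RNA from NCCIT cells (250 ng per array) was measured on 12 Affymetrix arrays, with conditions and replicate numbers taken from the labels. The authors deposited log2 values for 33297 transcript clusters. The submitters' processing notes name GCRMA, which subtracts background and sets all arrays to one distribution, and Partek, with versions not given in the sources used here. All value columns were used (columns not used: 0), without further normalization. Clusters were named through the platform annotation and RefSeq (GRCh38.p14): 19460 had 1 gene (19429 matched by gene number), 1754 had several and stayed unnamed, and 12083 had none listed. For the 769 genes with several clusters, the brightest stood for the gene.

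Means per condition were fitted to 12 arrays and 18417 genes with limma 3.58.1 in R 4.3.3 (6 residual degrees of freedom), with Benjamini-Hochberg adjustment over all genes. Depth does not apply to arrays, and the number of arrays limits the precision. The members and the 3 lists (synthesis, breakdown, and pyruvate and oxaloacetate) were chosen with earlier results of these data known. Besides the members, named genes were the siRNA targets, up to 4 called genes per list with the largest difference from siNTC, and the 5 genes most correlated with PCK2 and with ASNS.

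In simulated data for siRNF2 minus siEED over 18417 genes, 33 of 50 genes changed by 0.6 were found, all 50 changed by 0.8, and 1 of 18217 left unchanged. Alternatives were quantile normalization, centring, a filter on dim genes, other fold limits, a replicate block, leaving out each array, and the siSETD2 arrays in place of siNTC. Figures used matplotlib 3.10.9 in Python 3.11.15.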

Additional observations from a re-analysis of the deposited data

Results flagged for a closer look

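PCK2 differed between siRNF2 and siEED by 0.59 on the log2 scale, in a direct limma comparison of the 2 knockdowns (adjusted p = 0.00024). It fell under the fold limit without siEED replicate 1, without siRNF2 replicate 2 and with centred arrays. The comparison shares its arrays with those that chose the members. The combined knockdown departed from the sum of the single ones by -3.27 for PCK2, -1.58 for ASNS, -1.43 for CTH and -0.65 for PYCR1, values described without a test, because the contrast includes the siNTC arrays and the higher single-knockdown values by which these genes were chosen. With 2 arrays per condition, no single array could be tested as an outlier.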

How the results depend on the processing

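No member difference that had been called changed sign under any alternative run. With the fold limit dropped, the members past the threshold against siNTC numbered 5 in siRNF2, 5 in siEED, 6 in siWDR5, 7 in siEED+RNF2 and 5 in siSETD2, beside 31.7% to 43.0% of all genes. Between knockdowns they numbered 3 in siRNF2 minus siEED (10.7% of all genes), 3 in siEED+RNF2 minus siEED (13.7%), 2 in siEED+RNF2 minus siRNF2 (17.4%) and 3 in siWDR5 minus siEED (20.1%). The synthesis list then had 12 genes past it in siRNF2, 13 each in siEED and siEED+RNF2, 11 in siWDR5 and 8 in siSETD2. The breakdown list had 6 each in siRNF2 and siWDR5, 8 each in siEED and siEED+RNF2, and 9 in siSETD2, and the pyruvate and oxaloacetate list 14 in siRNF2, 8 each in siEED and siEED+RNF2, and 9 each in siWDR5 and siSETD2. At a fold of at least 2, 0 members passed in siSETD2 minus siNTC and 0 in siRNF2 minus siEED. The synthesis list then had 3 in siRNF2, 2 in siEED and 1 each in siEED+RNF2, siWDR5 and siSETD2, and 0 remained of the breakdown list outside siSETD2 and 0 of the pyruvate and oxaloacetate list in siRNF2, siEED and siEED+RNF2. Of all 18417 genes, 423 passed that fold in siRNF2, 225 in siEED, 566 in siEED+RNF2, 173 in siWDR5 and 220 in siSETD2. In siRNF2 minus siEED, 38 of all genes did. Centring arrays over genes moved the median gene difference in siRNF2 minus siNTC to -0.17, against -0.04 as deposited, and left 0 members in siRNF2 minus siEED and 0 breakdown enzymes in siRNF2. Quantile normalization and centring over all clusters each left 1 pyruvate and oxaloacetate gene in siRNF2. With siSETD2 in place of siNTC, the breakdown list had 0 in siRNF2, 0 in siEED, 0 in siWDR5 and 2 in siEED+RNF2, and the pyruvate and oxaloacetate list 3 in siWDR5. Centring over all clusters and the use of siSETD2 were added once the data had been seen. The fold limits change the counts by construction, and for the other alternatives the cause was not tested. Leaving out each array in turn, with a lone array assumed to vary like the other conditions, gave 3 to 4 members called in siEED minus siNTC, 0 to 1 in siRNF2 minus siEED, 0 to 1 in siEED+RNF2 minus siRNF2, 0 to 1 in siWDR5 minus siEED and 4 to 5 in the interaction, with 0 to 1 breakdown enzymes and 1 to 2 pyruvate and oxaloacetate genes in siRNF2.

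Small differences under the threshold changed sign. With centred arrays these were PCK1 in siRNF2 minus siEED (-0.0155), CTH in siEED+RNF2 minus siRNF2 (0.00876), and PYCR1 (0.0272) and BCAT1 (0.00164) in siWDR5 minus siEED, and with quantile normalization GOT1 in siEED+RNF2 minus siRNF2 (-0.0104) and in siWDR5 minus siEED (-0.00952). With an array left out, PCK1 ran from -0.0503 to 0.116 and ALDH18A1 from -0.107 to 0.00195 in siRNF2 minus siEED. PC ran from -0.113 to 0.171 in siEED+RNF2 minus siEED and from -0.119 to 0.151 in siWDR5 minus siEED, and GOT1 from -0.0454 to 0.0835 in siEED+RNF2 minus siRNF2 and from -0.0198 to 0.0680 in siWDR5 minus siEED.

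Replicate numbers mark no shared batch in the labels, and deviations of same-numbered arrays correlated between -0.107 and 0.161 over 15 pairs of conditions, above 0.1 in 1 pair. With the replicate block the members called against siNTC were 4 each in siRNF2 and siEED+RNF2, 3 each in siEED and siWDR5 and 1 in siSETD2, and PCK2 in siRNF2 minus siEED was 0.59. No member's call changed, but the adjusted p of PYCR1 in siRNF2 minus siEED, which was under the fold limit, exceeded 0.05 (0.054, with 0.0056 to 0.21 over all alternatives).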
